A study of Mus musculus with 14 samples.

Results

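The 35 interferon-stimulated genes described here were chosen by symbol from the 23441 genes of the deposited count matrix. They are Stat2, Irf9 and Irf7, Isg15 and its partners, sensors of foreign nucleic acid, the Oas and Ifit families, further antiviral effectors, 3 Schlafen genes and 6 others. Their read counts were compared between mice lacking Pnpla2 in bone marrow adipocytes and wildtype controls, fed freely or restricted. Pnpla2 encodes ATGL, the first enzyme of triacylglycerol breakdown in adipocytes.

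RNA was taken from marrow plugs flushed out of distal tibiae, a site rich in marrow fat, and 2 mice were pooled for each sample. All mice were male C57BL6/SJL animals of 24 weeks. The 4 groups, named by genotype and diet, were BMAd-Pnpla2+/+ mice fed ad libitum (+/+ AL, n = 4), BMAd-Pnpla2+/+ mice under 30% caloric restriction for 6 weeks (+/+ CR, n = 4), BMAd-Pnpla2-/- mice fed ad libitum (-/- AL, n = 3) and BMAd-Pnpla2-/- mice under the same restriction (-/- CR, n = 3). Cre is expressed from a cassette in the Adipoq locus that a FLPo recombinase, driven from the Osterix (Sp7) locus, switches on, so that deletion of floxed Pnpla2 is meant for adipocytes arising from marrow stroma. The study describes expression from that cassette as low and recombination as less frequent in young mice. By its description, control mice carried the FLPo allele and the Cre cassette too and lacked only the floxed Pnpla2 alleles, and the cassette itself lowers circulating adiponectin, so these are common to every group. The p-values below measure the spread between these pooled samples.

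Pnpla2 itself measured 176 to 305 CPM, the count scaled to the TMM-adjusted size of each library, in +/+ AL, 509 to 1029 in +/+ CR, 133 to 172 in -/- AL and 180 to 271 in -/- CR samples. Its log2 fold change for -/- against +/+ mice was -1.91 under CR (padj = 0.0387) and -0.57 with AL feeding (padj = 1), where padj is the Benjamini-Hochberg adjusted p of edgeR's quasi-likelihood test over the 17494 genes tested. Each sample held 18898324 to 21665553 counted read pairs. The -/- CR libraries differed in kind from the rest, with 50.1 to 50.5% of strand-assigned reads on the first strand against 4.30 to 4.62% in the other 11 libraries, so library kind and the -/- CR group cannot be told apart. Counts without regard to strand were therefore used for every sample. The plugs carried RNA of haematopoietic cells as well as adipocytes. In +/+ AL samples, 8 adipocyte markers summed to 481 to 930 CPM and 12 neutrophil markers to 28179 to 37293 CPM. Such sums depend on the genes listed and do not measure the share of RNA from a cell type.

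Interferon-stimulated genes are the output of a signalling relay. Type I interferons bind the receptor chains Ifnar1 and Ifnar2, whose kinases Jak1 and Tyk2 phosphorylate STAT proteins such as Stat2. With Irf9 these form the ISGF3 complex, which binds the interferon-stimulated response element (ISRE) in promoters, while interferon-gamma signals through the GAS element. Many of these genes also have a basal level that a weak, constant interferon tone maintains in the absence of infection. In bone marrow, interferon signalling is known to act on haematopoietic stem cells, myeloid cells and B cell precursors.

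The members lay on 15 chromosomes, and 16 of the 35 lay in 6 clusters (GRCm38, GENCODE M21). Oas1a, Oas2 and Oas3 spanned 177 kb of chromosome 5 (chr5:120730333-120907521), and Oasl1 and Oasl2 spanned 41.0 kb of the same chromosome (chr5:114896936-114937915). The 4 Ifit genes spanned 99.3 kb of chromosome 19 (chr19:34550694-34650009), the 3 Schlafen genes 239 kb of chromosome 11 (chr11:82951349-83190216), and Mx1 and Mx2 114 kb of chromosome 16 (chr16:97447035-97560900). Rsad2 and Cmpk2 started 12.8 kb apart on opposite strands of chromosome 12 (chr12:26442746-26479837). Isg15 had 2 exons (chr4:156199424-156200818, minus strand) and Irf7 1 merged exonic block (chr7:141262706-141266481, minus strand).

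Promoter sequence from RefSeq (GRCm38.p6, 250 bases before to 50 after each start) matched 25 of the 35 members, with 28 windows. The ISRE core was searched as GAAANNGAAA and the GAS element as TTCNNNGAA, each on both strands and each counted on its own where matches overlapped. The ISRE core occurred in 15 of the 28 member windows (53.6%) and in 3.44% of all 32851 promoter windows of the same length. The GAS letters occurred in 4 of the 28 (14.3%) and in 8.30% of all windows. No promoter entry was matched for Dhx58, Ifi204, Ifi27l2a, Mx1, Mx2, Oas2, Parp14, Rtp4, Usp18 and Zbp1.

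The windows below are shown because they carry the ISRE core ahead of the start of members whose values follow, including the member with the largest fold change (Isg15) and one from each of several role groups. Each has 70 bases, 5′ to 3′ on the gene's own strand, and capitals mark every match of the core on either strand. The Isg15 window (chr4:156200851-156200920, minus strand) held overlapping matches, the first beginning 78 bases before the start. The Oas3 window (chr5:120777695-120777764, minus strand) held 1 match that began 75 bases before the start. Further windows were those of Bst2 (chr8:71537560-71537629, minus strand), Rsad2 (chr12:26456533-26456602, minus strand), Stat2 (chr10:128270248-128270317, plus strand), Ifit1 (chr19:34640764-34640833, plus strand) and Ifit3 (chr19:34583360-34583429, plus strand), and the Ifit3b window (chr19:34607756-34607825, plus strand) had the same letters as that of Ifit3.
Isg15: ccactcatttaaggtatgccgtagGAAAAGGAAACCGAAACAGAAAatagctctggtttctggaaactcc
Oas3: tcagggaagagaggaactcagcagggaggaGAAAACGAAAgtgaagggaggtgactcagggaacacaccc
Bst2: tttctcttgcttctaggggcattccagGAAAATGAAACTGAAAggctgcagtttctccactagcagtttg
Rsad2: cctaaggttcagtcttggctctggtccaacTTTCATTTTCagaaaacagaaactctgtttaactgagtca
Stat2: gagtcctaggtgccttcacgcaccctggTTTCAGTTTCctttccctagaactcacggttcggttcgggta
Ifit1: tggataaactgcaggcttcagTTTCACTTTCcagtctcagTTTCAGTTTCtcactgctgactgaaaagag
Ifit3: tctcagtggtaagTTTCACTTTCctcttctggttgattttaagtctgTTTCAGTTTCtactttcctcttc

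With CR in +/+ mice, the 14 members with a core had a median log2 fold change of -0.71, and 10 of them fell. The 11 members with a window but no core had a median of -0.75, and 9 of them fell. These are descriptions of letters in a window, and a match is not a bound site.

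Under caloric restriction, 26 of the 35 interferon-stimulated genes were lower in +/+ and 17 in -/- mice. None was higher past the threshold in edgeR or in DESeq2 (0 with a positive change at an unadjusted p under 0.05 in either test). The -/- CR libraries differed in kind from the -/- AL ones, so diet and library kind cannot be told apart in -/- mice. The 26 that fell in +/+ mice at padj under 0.05 were 74.3% of the members, against 10.9% of the 17494 genes tested that fell and 15% that rose. The largest falls were those of Isg15, Oas2 and Oas3, to 4.32-fold to 5.83-fold lower levels, and the median log2 fold change of the 35 was -0.73 against 0.00 over all genes. The 17 that fell in -/- mice were 48.6%, against 5.57% of all genes that fell and 6.01% that rose, and the median was -0.85 against 0.05. The members were chosen with earlier results of these data known, so these shares do not test whether such genes fall more often than others. In bulk marrow, fewer cells of a type and less RNA per cell cannot be told apart.

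Fold changes past -1 on the log2 scale together with padj under 0.05 were found for 13 members in +/+ mice (1.93% of all genes) and for 10 in -/- mice (0.926% of all genes). Every member that fell in -/- mice also fell in +/+ mice in this fit over all 14 samples. With only the groups compared in each fit, 19 members fell in +/+ mice (5.61% of all genes) and 23 in -/- mice (9.34% of all genes). Stat2, Zbp1, Ifi27l2a, Rtp4, Ddx58, Ifi204 and Parp14 then passed in -/- mice alone. The larger count in +/+ mice thus depends on which samples enter the fit, as do the shares over all genes. In the fit over all 14 samples, the 9 members that fell past the threshold in +/+ mice alone were Usp18, Herc6, Eif2ak2, Ifit2, Mx1, Rsad2, Cmpk2, Ifi27l2a and Xaf1. In that fit, neither genotype passed for Ddx58, Ifi204, Ifit3, Ifit3b, Mx2, Slfn1, Slfn5, Ifi44 and Parp14. The log2 fold change was below 0 for 34 members in +/+ mice (49.8% of all genes) and for 33 in -/- mice (45.6% of all genes). It was the more negative in -/- mice for 21 members (49.9% of all genes). For 21 members, every +/+ CR sample lay below every +/+ AL sample (10.4% of all genes did so), and for 29 members the same held in -/- mice (17.4% of all genes). In 19 members both held, and the share of all genes for which both held was not counted.

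**Figure D1:**
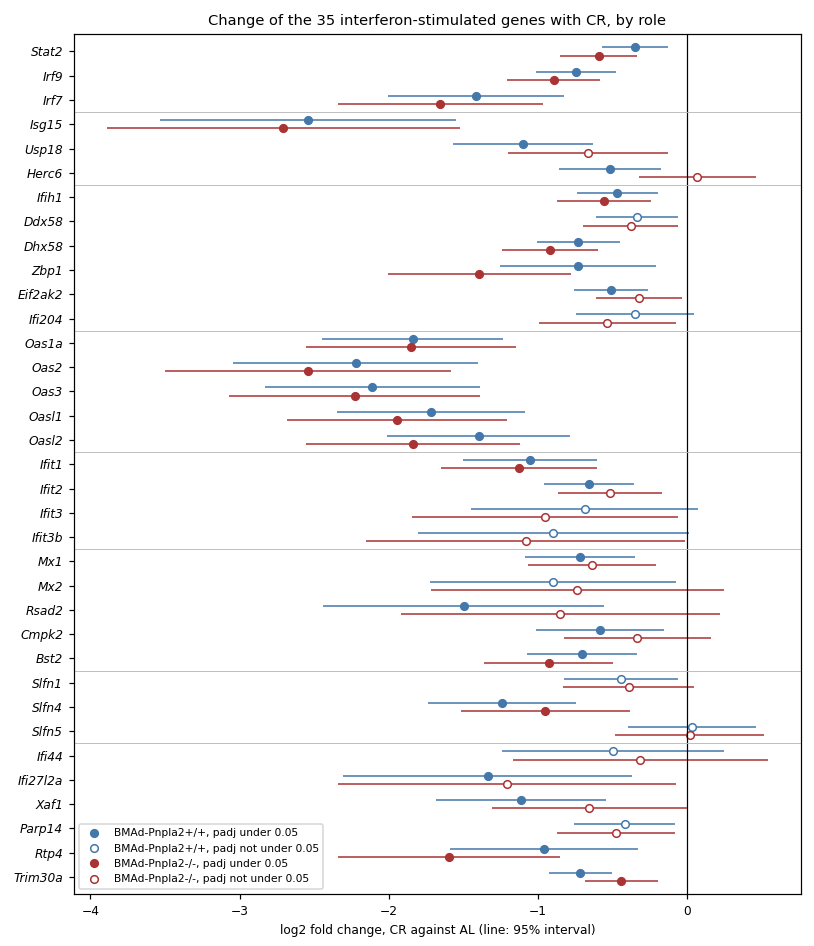
The log2 fold change of each of the 35 genes, CR against AL, with its 95% interval, in BMAd-Pnpla2+/+ (blue) and BMAd-Pnpla2-/- mice (red), grouped by role from the transcription factors at the top. Filled points had padj under 0.05; all 26 filled blue and 17 filled red points lie below 0, and Isg15 lies furthest to the left.

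The plot of log2 fold changes by role shows Isg15, Oas2 and Oas3 furthest from 0 in both genotypes, with wide intervals. By role, members that fell in +/+ mice made up 3 of 3 transcription factors, 3 of 3 genes of the ISG15 system, 4 of 6 sensors, 5 of 5 Oas genes, 2 of 4 Ifit genes, 4 of 5 other antiviral effectors, 1 of 3 Schlafen genes and 4 of 6 others. The counts in -/- mice were 3, 1, 3, 5, 1, 1, 1 and 2 in the same order. Values below are given in CPM for replicates in order, with the standard error (SE) of each log2 fold change.

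The transcription factors of the response fell in both genotypes. Stat2, a signal transducer of the interferon receptor, measured 103, 73.6, 76.3 and 83.3 CPM in +/+ AL, 63.7, 61.8, 70.4 and 67.5 CPM in +/+ CR, 86.3, 91.1 and 81.8 CPM in -/- AL and 52.0, 60.4 and 59.2 CPM in -/- CR samples. With CR, Stat2 fell by 0.35 on the log2 scale in +/+ mice (SE 0.10, padj = 0.0251) and fell by 0.60 in -/- mice (SE 0.12, padj = 0.0116). The groups did not overlap in either genotype, and replicate 1 was the highest of the +/+ AL samples. Irf9, the DNA-binding partner in ISGF3, measured 103, 88.9, 86.2 and 82.5 CPM in +/+ AL, 60.2, 43.0, 51.5 and 60.1 CPM in +/+ CR, 105, 97.5 and 89.1 CPM in -/- AL and 46.8, 61.8 and 47.9 CPM in -/- CR samples. With CR, Irf9 fell by 0.75 on the log2 scale in +/+ mice (SE 0.12, padj = 0.00244) and fell by 0.90 in -/- mice (SE 0.14, padj = 0.00741). Every CR sample lay below every AL sample. Irf7, which amplifies transcription of type I interferon genes, measured 171, 71.0, 69.2 and 77.4 CPM in +/+ AL, 39.7, 33.0, 37.9 and 34.9 CPM in +/+ CR, 91.0, 97.3 and 73.0 CPM in -/- AL and 21.2, 37.4 and 24.4 CPM in -/- CR samples. With CR, Irf7 fell by 1.42 on the log2 scale in +/+ mice (SE 0.27, padj = 0.00481) and fell by 1.66 in -/- mice (SE 0.32, padj = 0.0108). One +/+ AL sample stood far above the other 3 of its group, yet the lowest AL sample of either genotype was still above every CR sample.

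The ISG15 system held the member with the largest fold change. Isg15, a ubiquitin-like protein conjugated to target proteins, measured 30.0, 35.9, 15.3 and 22.4 CPM in +/+ AL, 9.13, 3.01, 1.80 and 3.85 CPM in +/+ CR, 25.8, 12.3 and 17.7 CPM in -/- AL and 2.51, 4.37 and 1.69 CPM in -/- CR samples. With CR, Isg15 fell by 2.54 on the log2 scale in +/+ mice (SE 0.46, padj = 0.00381) and fell by 2.71 in -/- mice (SE 0.55, padj = 0.0125). The fitted AL level was 5.83 times the CR level in +/+ and 6.53 times in -/- mice, with no overlap between the diets, and the CR samples held few counts. Usp18, which removes ISG15 and binds Ifnar2 to restrain signalling, measured 12.9, 7.70, 9.34 and 7.21 CPM in +/+ AL, 4.04, 3.19, 5.37 and 4.71 CPM in +/+ CR, 10.5, 8.59 and 7.02 CPM in -/- AL and 5.12, 6.45 and 4.92 CPM in -/- CR samples. With CR, Usp18 fell by 1.10 on the log2 scale in +/+ mice (SE 0.22, padj = 0.00512), and its log2 fold change in -/- mice was -0.66 (SE 0.25, padj = 0.0971). The CR samples lay below all AL samples in each genotype, although the fold change passed the threshold in +/+ mice alone. Herc6, the main ligase that attaches ISG15 in the mouse, measured 12.1, 12.3, 9.86 and 11.8 CPM in +/+ AL, 6.44, 7.45, 7.76 and 10.5 CPM in +/+ CR, 13.2, 9.18 and 10.4 CPM in -/- AL and 11.6, 11.9 and 10.8 CPM in -/- CR samples. With CR, Herc6 fell by 0.52 on the log2 scale in +/+ mice (SE 0.16, padj = 0.0308), and its log2 fold change in -/- mice was 0.07 (SE 0.18, padj = 0.846). Its +/+ CR replicate 4 overlapped the AL range, and in -/- mice the CR samples lay within the AL range. Usp18 overlaps Gm44148 on the opposite strand, and 18.8% of its strand-assigned reads lay on the first strand in the 11 stranded libraries. Herc6 overlaps Gm45193 on the same strand over 1269 exon bases and shares 10.3% of its 100-base stretches, so its count is uncertain.

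Among the sensors, the helicases Ifih1 and Dhx58 and the Z-nucleic acid sensor Zbp1 fell in both genotypes. Ifih1, the long double-stranded RNA sensor MDA5, measured 44.9, 38.1, 32.5 and 32.2 CPM in +/+ AL, 28.4, 22.9, 27.5 and 27.9 CPM in +/+ CR, 39.8, 37.6 and 32.0 CPM in -/- AL and 23.7, 28.0 and 22.4 CPM in -/- CR samples. With CR, Ifih1 fell by 0.47 on the log2 scale in +/+ mice (SE 0.13, padj = 0.0185) and fell by 0.56 in -/- mice (SE 0.15, padj = 0.0285). The ranges were close but did not meet in either genotype. Dhx58, the helicase LGP2, a partner of MDA5, measured 39.0, 24.8, 26.6 and 27.1 CPM in +/+ AL, 17.9, 17.7, 18.7 and 16.5 CPM in +/+ CR, 27.0, 26.3 and 29.7 CPM in -/- AL and 15.5, 14.4 and 13.9 CPM in -/- CR samples. With CR, Dhx58 fell by 0.73 on the log2 scale in +/+ mice (SE 0.13, padj = 0.00327) and fell by 0.92 in -/- mice (SE 0.15, padj = 0.00747). The CR samples of both genotypes were tightly grouped below all AL samples. Zbp1, which binds Z-form nucleic acid and can start cell death, measured 40.8, 17.8, 23.3 and 18.9 CPM in +/+ AL, 13.8, 13.6, 18.4 and 14.9 CPM in +/+ CR, 30.6, 32.6 and 24.8 CPM in -/- AL and 9.13, 14.6 and 9.74 CPM in -/- CR samples. With CR, Zbp1 fell by 0.73 on the log2 scale in +/+ mice (SE 0.24, padj = 0.0408) and fell by 1.40 in -/- mice (SE 0.29, padj = 0.0125). The +/+ groups overlapped through CR replicate 3 and AL replicate 2, and the -/- groups did not overlap. Eif2ak2, the kinase PKR, which halts translation on binding double-stranded RNA, measured 47.2, 49.7, 37.2 and 34.8 CPM in +/+ AL, 30.2, 28.3, 31.3 and 28.9 CPM in +/+ CR, 42.1, 37.2 and 39.3 CPM in -/- AL and 34.6, 31.7 and 28.6 CPM in -/- CR samples. With CR, Eif2ak2 fell by 0.51 on the log2 scale in +/+ mice (SE 0.12, padj = 0.00891), and its log2 fold change in -/- mice was -0.32 (SE 0.13, padj = 0.126). In both genotypes the CR samples lay below the AL samples. Ddx58, the sensor RIG-I, measured 87.9, 52.2, 62.6 and 66.3 CPM in +/+ AL, 51.9, 49.3, 57.4 and 54.7 CPM in +/+ CR, 66.5, 75.5 and 64.6 CPM in -/- AL and 50.2, 52.6 and 56.0 CPM in -/- CR samples. For Ddx58, the log2 fold change with CR was -0.34 (SE 0.13, padj = 0.067) in +/+ mice and -0.38 (SE 0.15, padj = 0.108) in -/- mice. This fold change missed the threshold in both genotypes, and in +/+ mice the diets overlapped. Ifi204, a p200-family DNA-binding protein, ranged over 29.8 to 48.4 CPM in +/+ AL, 21.1 to 36.6 CPM in +/+ CR, 31.4 to 43.3 CPM in -/- AL and 21.9 to 28.4 CPM in -/- CR samples. For Ifi204, the log2 fold change with CR was -0.35 (SE 0.18, padj = 0.166) in +/+ mice and -0.54 (SE 0.21, padj = 0.113) in -/- mice. It also missed the threshold in both, and its count is uncertain because it shares 10.7% of its 100-base stretches with Ifi211. Dhx58 overlaps Dhx58os on the opposite strand, and its unstranded count was 83.2% of its reverse-strand count in the stranded libraries.

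The Oas family, which includes the enzymes that make the short oligoadenylates that activate RNase L, fell as a whole. Oas1a, an oligoadenylate synthetase, measured 25.4, 10, 11.1 and 12.5 CPM in +/+ AL, 3.46, 3.89, 4.38 and 4.76 CPM in +/+ CR, 15.5, 15.3 and 14.4 CPM in -/- AL and 2.88, 5.70 and 3.93 CPM in -/- CR samples. With CR, Oas1a fell by 1.84 on the log2 scale in +/+ mice (SE 0.28, padj = 0.00175) and fell by 1.85 in -/- mice (SE 0.33, padj = 0.00944). CR samples of both genotypes reached at most 5.70 CPM, and AL samples were at 10 CPM or more. Oas2, a larger synthetase, measured 51.4, 16.9, 22.4 and 26.5 CPM in +/+ AL, 7.73, 4.07, 8.48 and 4.76 CPM in +/+ CR, 38.8, 31.8 and 27.7 CPM in -/- AL and 3.79, 9.11 and 3.98 CPM in -/- CR samples. With CR, Oas2 fell by 2.22 on the log2 scale in +/+ mice (SE 0.38, padj = 0.00304) and fell by 2.54 in -/- mice (SE 0.44, padj = 0.00944). Even the lowest AL sample exceeded the highest CR sample of its genotype. Oas3, the longest synthetase of the family, measured 111, 79.7, 72.8 and 66.8 CPM in +/+ AL, 27.0, 9.99, 12.1 and 27.4 CPM in +/+ CR, 105, 71.6 and 70.3 CPM in -/- AL and 18.2, 23.1 and 11.2 CPM in -/- CR samples. With CR, Oas3 fell by 2.11 on the log2 scale in +/+ mice (SE 0.33, padj = 0.00212) and fell by 2.23 in -/- mice (SE 0.39, padj = 0.00944). In +/+ CR, replicates 2 and 3 lay well below replicates 1 and 4, and all 4 were below every AL sample. Oasl1, known to limit translation of Irf7, measured 20.9, 7.11, 8.25 and 9.85 CPM in +/+ AL, 3.99, 2.73, 3.61 and 3.69 CPM in +/+ CR, 12.3, 11.3 and 11.5 CPM in -/- AL and 2.51, 3.78 and 2.83 CPM in -/- CR samples. With CR, Oasl1 fell by 1.72 on the log2 scale in +/+ mice (SE 0.29, padj = 0.00275) and fell by 1.94 in -/- mice (SE 0.34, padj = 0.00944). The diets did not overlap in either genotype. Oasl2, the other Oas-like gene, measured 95.9, 33.7, 43.7 and 49.6 CPM in +/+ AL, 19.4, 18.5, 26.3 and 20.3 CPM in +/+ CR, 71.2, 73.9 and 57.4 CPM in -/- AL and 15.2, 25.8 and 15.7 CPM in -/- CR samples. With CR, Oasl2 fell by 1.40 on the log2 scale in +/+ mice (SE 0.28, padj = 0.00581) and fell by 1.84 in -/- mice (SE 0.33, padj = 0.00944). All CR samples lay below all AL samples. Oas1a shares 40.9% of its 100-base stretches with Oas1g, so its count is uncertain.

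Of the Ifit genes, which bind the ends of foreign RNA and block its translation, Ifit1 fell in both genotypes and Ifit2 in +/+ mice. Ifit1, which recognises RNA caps lacking methyl groups, measured 12.2, 8.02, 6.68 and 8.07 CPM in +/+ AL, 4.71, 4.02, 4.78 and 3.32 CPM in +/+ CR, 7.27, 11.1 and 8.95 CPM in -/- AL and 3.79, 4.96 and 3.78 CPM in -/- CR samples. With CR, Ifit1 fell by 1.05 on the log2 scale in +/+ mice (SE 0.21, padj = 0.0052) and fell by 1.13 in -/- mice (SE 0.24, padj = 0.0146). The groups did not overlap. Ifit2, its neighbour in the cluster, measured 26.0, 24.4, 21.8 and 22 CPM in +/+ AL, 16.8, 10.8, 15.6 and 16.4 CPM in +/+ CR, 24.7, 27.5 and 26.1 CPM in -/- AL and 20.5, 18.9 and 15.3 CPM in -/- CR samples. With CR, Ifit2 fell by 0.66 on the log2 scale in +/+ mice (SE 0.14, padj = 0.00651), and its log2 fold change in -/- mice was -0.52 (SE 0.16, padj = 0.0515). The -/- change missed the threshold, and the diets did not overlap in either genotype. Ifit3, an Ifit protein that steadies Ifit1, ranged over 10.9 to 30.7 CPM in +/+ AL, 8.08 to 13.2 CPM in +/+ CR, 13.8 to 20.2 CPM in -/- AL and 4.59 to 12.5 CPM in -/- CR samples. For Ifit3, the log2 fold change with CR was -0.69 (SE 0.35, padj = 0.161) in +/+ mice and -0.95 (SE 0.41, padj = 0.145) in -/- mice. The +/+ groups overlapped. Ifit3b, a near copy of Ifit3, ranged over 2.99 to 10.7 CPM in +/+ AL, 1.66 to 4.15 CPM in +/+ CR, 3.75 to 6.83 CPM in -/- AL and 1.39 to 3.46 CPM in -/- CR samples. For Ifit3b, the log2 fold change with CR was -0.90 (SE 0.42, padj = 0.127) in +/+ mice and -1.08 (SE 0.50, padj = 0.167) in -/- mice. Of the +/+ AL samples, 1 stood well above the other 3. Ifit3 and Ifit3b share 31.7% and 27.4% of their 100-base stretches with each other, so their counts are uncertain, and the high +/+ AL value came from replicate 1 in both.

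Of the 5 other antiviral effectors, Bst2 fell in both genotypes and Mx1, Rsad2 and Cmpk2 in +/+ mice. Mx1, a dynamin-like GTPase, measured 14.5, 9.25, 13.2 and 14.2 CPM in +/+ AL, 6.25, 7.59, 9.34 and 7.81 CPM in +/+ CR, 11.5, 14.1 and 13.9 CPM in -/- AL and 7.85, 10.2 and 7.36 CPM in -/- CR samples. With CR, Mx1 fell by 0.72 on the log2 scale in +/+ mice (SE 0.17, padj = 0.0113), and its log2 fold change in -/- mice was -0.64 (SE 0.20, padj = 0.0519). The +/+ groups touched, since CR replicate 3 lay above AL replicate 2. Rsad2, the radical enzyme viperin, which makes a chain-terminating nucleotide, measured 118, 210, 118 and 144 CPM in +/+ AL, 72.5, 20.6, 23.9 and 92.1 CPM in +/+ CR, 162, 106 and 153 CPM in -/- AL and 79.6, 107 and 46.8 CPM in -/- CR samples. With CR, Rsad2 fell by 1.5 on the log2 scale in +/+ mice (SE 0.44, padj = 0.0258), and its log2 fold change in -/- mice was -0.85 (SE 0.50, padj = 0.277). The +/+ CR samples split, with replicates 2 and 3 far below replicates 1 and 4, and in -/- mice the diets overlapped by 1 sample. Cmpk2, the kinase encoded beside Rsad2, measured 73.9, 86.6, 71.3 and 68.1 CPM in +/+ AL, 57.9, 32.5, 37.8 and 71.9 CPM in +/+ CR, 87.1, 72.4 and 82.4 CPM in -/- AL and 64.6, 69.6 and 57.4 CPM in -/- CR samples. With CR, Cmpk2 fell by 0.58 on the log2 scale in +/+ mice (SE 0.20, padj = 0.0456), and its log2 fold change in -/- mice was -0.34 (SE 0.23, padj = 0.358). It showed the same split among +/+ CR samples as Rsad2, and +/+ CR replicate 4 reached the AL range. Bst2, tetherin, which holds budding virus at the membrane, measured 52.0, 33.2, 39.8 and 44.6 CPM in +/+ AL, 25.7, 30.3, 27.9 and 20.1 CPM in +/+ CR, 40.7, 36.7 and 34.8 CPM in -/- AL and 15.4, 25.3 and 18.2 CPM in -/- CR samples. With CR, Bst2 fell by 0.71 on the log2 scale in +/+ mice (SE 0.17, padj = 0.0124) and fell by 0.93 in -/- mice (SE 0.20, padj = 0.0146). The groups did not overlap in either genotype. Mx2, the second Mx gene, ranged over 1.66 to 6.12 CPM in +/+ AL, 1.20 to 2.57 CPM in +/+ CR, 1.82 to 2.93 CPM in -/- AL and 0.801 to 2.09 CPM in -/- CR samples. For Mx2, the log2 fold change with CR was -0.90 (SE 0.38, padj = 0.0959) in +/+ mice and -0.74 (SE 0.46, padj = 0.309) in -/- mice. The threshold was missed in both genotypes.

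Of the 3 Schlafen genes, a family that regulates growth and translation in haematopoietic cells, Slfn4 fell in both genotypes. Slfn4, known from myeloid cells, measured 320, 228, 314 and 214 CPM in +/+ AL, 132, 66.8, 110 and 146 CPM in +/+ CR, 287, 237 and 283 CPM in -/- AL and 182, 123 and 112 CPM in -/- CR samples. With CR, Slfn4 fell by 1.24 on the log2 scale in +/+ mice (SE 0.23, padj = 0.00409) and fell by 0.95 in -/- mice (SE 0.26, padj = 0.0364). No CR sample reached the AL range. Slfn1, known from quiescent T cells, ranged over 82.5 to 111 CPM in +/+ AL, 48.5 to 86.1 CPM in +/+ CR, 99.6 to 105 CPM in -/- AL and 65.3 to 94.0 CPM in -/- CR samples. For Slfn1, the log2 fold change with CR was -0.45 (SE 0.18, padj = 0.077) in +/+ mice and -0.39 (SE 0.20, padj = 0.221) in -/- mice. The threshold was missed in both genotypes. Slfn5, a longer Schlafen protein, ranged over 64.6 to 106 CPM in +/+ AL, 61.6 to 101 CPM in +/+ CR, 67.4 to 98.3 CPM in -/- AL and 63.5 to 89.5 CPM in -/- CR samples. For Slfn5, the log2 fold change with CR was 0.03 (SE 0.20, padj = 0.924) in +/+ mice and 0.02 (SE 0.23, padj = 0.973) in -/- mice. The log2 fold change lay within 0.03 of 0 in both genotypes, and the groups overlapped throughout. Slfn5 overlaps Slfn5os on the opposite strand, and its unstranded count was 86.1% of its reverse-strand count.

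The 6 others included 4 genes that fell in +/+ mice. Ifi27l2a, a small membrane protein, measured 68.7, 24.0, 32.3 and 38.7 CPM in +/+ AL, 9.99, 31.1, 17.6 and 5.94 CPM in +/+ CR, 24.8, 35.1 and 22.5 CPM in -/- AL and 7.63, 16.8 and 11.2 CPM in -/- CR samples. With CR, Ifi27l2a fell by 1.34 on the log2 scale in +/+ mice (SE 0.45, padj = 0.0437), and its log2 fold change in -/- mice was -1.21 (SE 0.52, padj = 0.146). Values spread widely within the diets, and the +/+ groups overlapped. Xaf1, a partner of the caspase inhibitor XIAP, measured 44.0, 30.2, 30.8 and 27.5 CPM in +/+ AL, 14.9, 20.9, 12.3 and 13.2 CPM in +/+ CR, 37.1, 25.2 and 15.1 CPM in -/- AL and 12.5, 20.5 and 16.2 CPM in -/- CR samples. With CR, Xaf1 fell by 1.11 on the log2 scale in +/+ mice (SE 0.26, padj = 0.0113), and its log2 fold change in -/- mice was -0.66 (SE 0.30, padj = 0.171). The -/- groups overlapped through AL replicate 3. Rtp4, a receptor chaperone, measured 41.3, 15.8, 19 and 18.5 CPM in +/+ AL, 12.2, 10.2, 14.5 and 11.7 CPM in +/+ CR, 22.9, 29.5 and 26.3 CPM in -/- AL and 5.50, 12.0 and 8.50 CPM in -/- CR samples. With CR, Rtp4 fell by 0.96 on the log2 scale in +/+ mice (SE 0.29, padj = 0.0302) and fell by 1.60 in -/- mice (SE 0.34, padj = 0.0148). No CR sample reached the AL range of its genotype. Trim30a, an E3 ligase family member known to limit Toll-like receptor signalling, measured 86.2, 69.7, 68.8 and 66.7 CPM in +/+ AL, 39.3, 42.4, 51.1 and 44.5 CPM in +/+ CR, 72.7, 74.1 and 78.6 CPM in -/- AL and 56.5, 55.6 and 53.8 CPM in -/- CR samples. With CR, Trim30a fell by 0.72 on the log2 scale in +/+ mice (SE 0.10, padj = 0.00102) and fell by 0.44 in -/- mice (SE 0.11, padj = 0.0263). It had among the smallest standard errors of the 35, and no overlap. Parp14, an ADP-ribosyltransferase, measured 124, 70.4, 76.0 and 81.2 CPM in +/+ AL, 61.8, 67.9, 76.8 and 56.2 CPM in +/+ CR, 86.0, 87.7 and 79.1 CPM in -/- AL and 53.0, 62.1 and 66.4 CPM in -/- CR samples. For Parp14, the log2 fold change with CR was -0.42 (SE 0.16, padj = 0.0633) in +/+ mice and -0.48 (SE 0.18, padj = 0.102) in -/- mice. The change missed the threshold in both genotypes. Ifi44, a cytoplasmic protein of unclear function, ranged over 2.14 to 3.48 CPM in +/+ AL, 0.695 to 2.41 CPM in +/+ CR, 2.09 to 3.84 CPM in -/- AL and 1.49 to 2.66 CPM in -/- CR samples. For Ifi44, the log2 fold change with CR was -0.50 (SE 0.35, padj = 0.294) in +/+ mice and -0.31 (SE 0.40, padj = 0.645) in -/- mice. The change missed the threshold in both genotypes, and the groups overlapped.

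**Figure D2:**
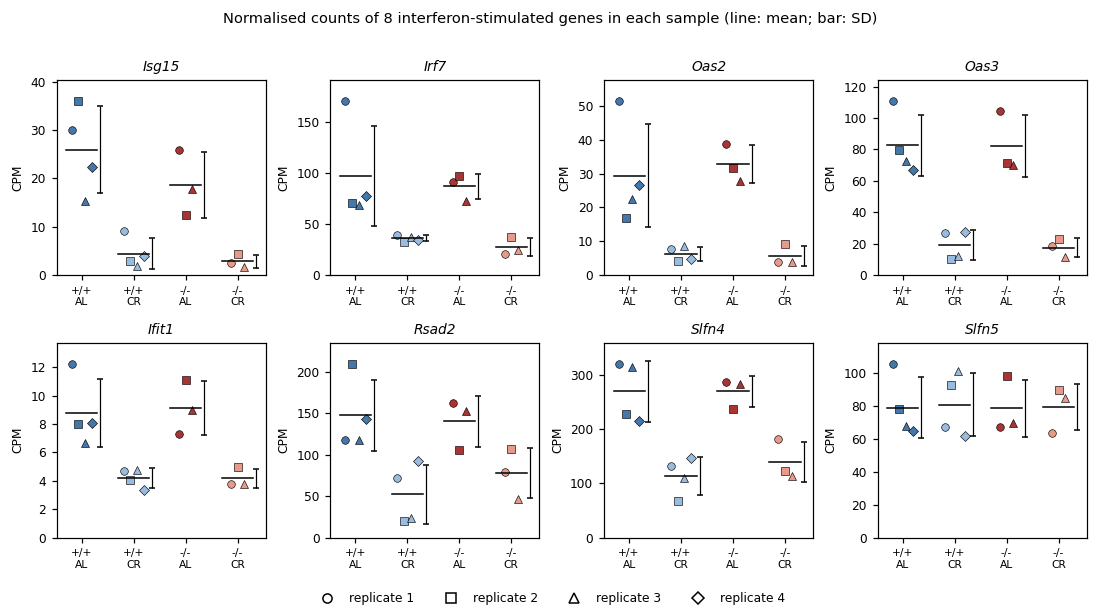
CPM of 8 of the genes in every sample (each point 1 sample, marker shape its replicate number), with the group mean (line) and SD (bar), on linear axes from 0. Isg15, Irf7, Oas2, Oas3, Ifit1 and Slfn4 separate AL from CR in both genotypes, Rsad2 separates them in +/+ mice with an overlap in -/- mice, and Slfn5 does not separate them.

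The plot of CPM by sample also shows that the spread within AL groups was large for several genes, with +/+ AL replicate 1 at 171 CPM for Irf7 and at 51.4 CPM for Oas2. Per kilobase of exon, averaged over the 14 samples, the levels ran from 53.4 CPM per kb for Ifi27l2a, 49.7 for Slfn4, 45.2 for Slfn1 and 35.2 for Bst2 down to 0.65 for Mx2 and 0.37 for Ifi44. Isg15 stood at 17.6 and Rsad2 at 24.0 CPM per kb. Oasl1, which fell by more than the median member, stood at 2.86 CPM per kb.

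Single samples stood apart for many members at once. Replicate 1 of +/+ AL held the highest value of its group for 29 of the 35 members (82.9%), against 31.2% of all genes tested. Its ratio to the mean of the other 3 samples had a median of 1.51, from 0.752 for Rsad2 to 2.79 for Ifit3b, and exceeded 2 for 11 members. Isg15, Herc6, Eif2ak2, Rsad2, Cmpk2 and Slfn1 were not highest there. In -/- CR, replicate 2 was highest for 26 members (74.3%, against 29.2% of all genes). In +/+ CR, replicate 3 was highest for 18 members (51.4%, against 24.3% of all genes) and lowest for 2, and replicate 2 was lowest for 19 (54.3%, against 26.3%). Replicates 2 and 3 were nevertheless the lowest pair for 10 members, namely Irf9, Isg15, Ifih1, Oas3, Oasl1, Ifit2, Rsad2, Cmpk2, Slfn1 and Slfn4.

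**Figure D3:**
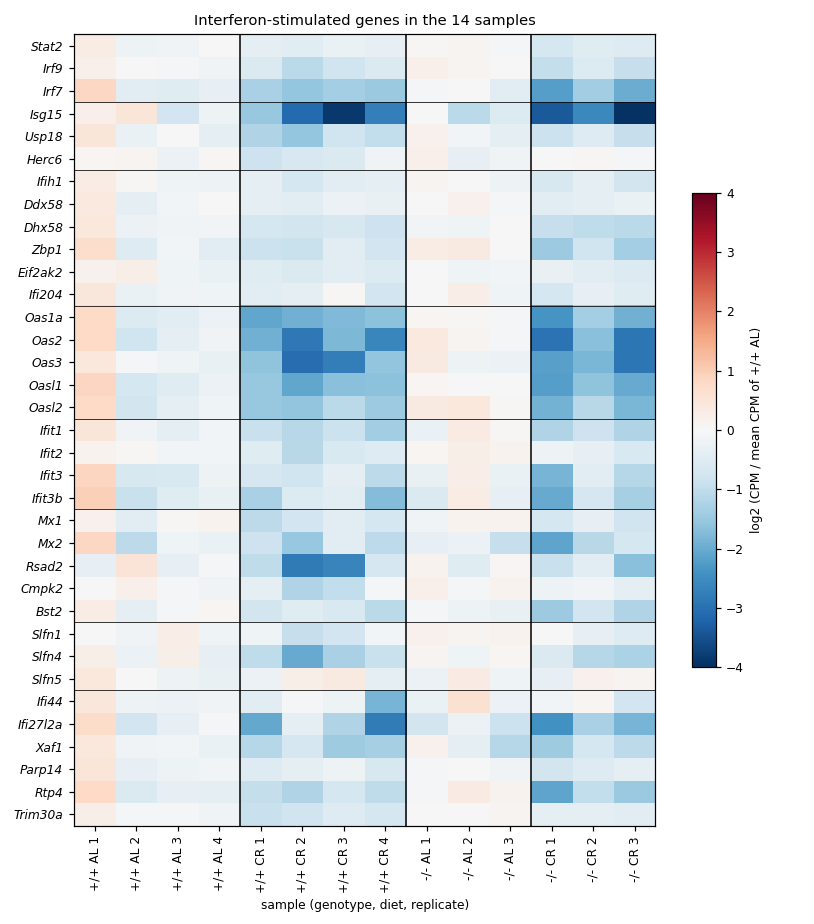
Each gene's CPM in each of the 14 samples as log2 of its ratio to the +/+ AL mean, from -4 (dark blue) to 4 (dark red), with genes in role order and vertical lines between groups. The CR columns are mostly blue in both genotypes, darkest for Isg15 and the Oas genes, and the +/+ AL replicate 1 column is the reddest.

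In that map of log2 ratios, the median over the 35 members was 0.42 in +/+ AL replicate 1, and replicates 2 to 4 of that group gave medians of -0.24 to -0.16. It was -0.89 to -0.65 in +/+ CR, -0.08 to 0.03 in -/- AL and -1.03 to -0.54 in -/- CR samples. Without +/+ AL replicate 1, 20 of the 26 members still fell in +/+ mice, no other member passed, and the median was -0.59. Stat2, Herc6, Zbp1, Cmpk2, Ifi27l2a and Rtp4 no longer passed. That library also had the highest endothelial marker sum of its group (645 CPM against 447 to 455) and the highest adipocyte (930 against 481 to 619 CPM), osteoblast lineage (1090 against 471 to 744 CPM) and monocyte and macrophage sums (2529 against 2024 to 2211 CPM). Its erythroid (16539 against 26620 to 29372 CPM) and neutrophil sums (28179 against 29786 to 37293 CPM) were the lowest of the group. Their part in the result was not tested.

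**Figure D4:**
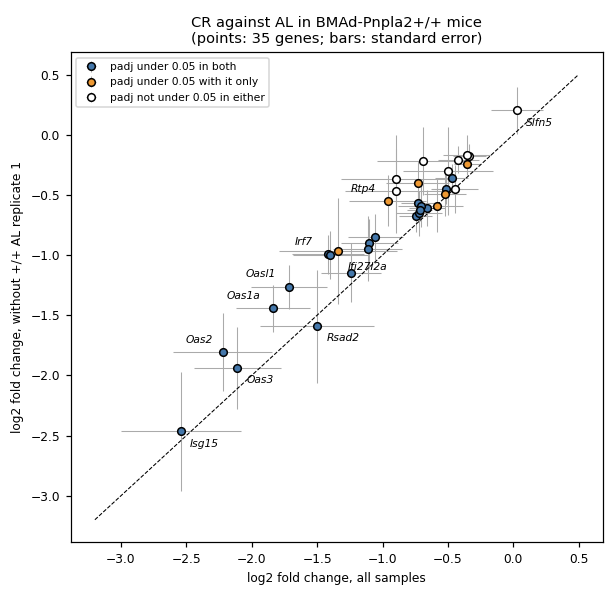
Log2 fold change of each of the 35 genes with CR in BMAd-Pnpla2+/+ mice, with all samples (x axis) and without +/+ AL replicate 1 (y axis), with SE bars and the line of equality. The 20 blue points passed in both fits and the 6 orange ones with all samples alone; most points lie above the line, nearer to 0 without that sample.

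The plot of fold changes with and without that sample shows Isg15, Oas3, Oas2 and Rsad2 furthest from 0 without it, at -2.46, -1.94, -1.81 and -1.59. Leaving out each of the 14 samples in turn, 18 of the 26 calls in +/+ mice held every time. Of the 17 in -/- mice, 7 held every time, those of Irf9, Dhx58, Oas1a, Oas2, Oas3, Oasl1 and Oasl2. Without -/- CR replicate 3, 10 of the 17 missed the threshold, with padj of 0.0501 to 0.134. Over all genes, the share that fell with CR in -/- mice was then 0.707%. All 10 kept an unadjusted p under 0.05, and the median over the 35 was then -0.82.

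The genotypes were compared directly under each diet. Under CR, the -/- libraries differed in kind from the +/+ ones, so genotype and library kind cannot be told apart there. With AL feeding, none of the 35 differed between -/- and +/+ mice in edgeR's test (0% of all genes did). DESeq2 called 0 as well. None had an unadjusted p under 0.05 in edgeR, against 694 of the 17494 genes tested. The log2 fold changes ran from -0.58 for Ifi27l2a (95% interval -1.62 to 0.46) to 0.28 for Oasl2 (-0.36 to 0.92). For 30 members the whole interval lay within 1 of 0.

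Under CR, edgeR again called 0 of the 35 (0.0171% of all genes). DESeq2 called 0 of the 35 while calling 948 genes lower and 650 higher of the 13085 that it gave an adjusted p. In edgeR, 2 members had an unadjusted p under 0.05, against 4052 of the 17494 genes tested. The 2 were Herc6, at 0.51 (SE 0.17, padj = 0.112), and Trim30a, at 0.32 (SE 0.11, padj = 0.111), both with the higher level in -/- mice. The fold changes ran from -0.64 for Isg15 (95% interval -1.76 to 0.48) to 0.58 for Rsad2 (-0.42 to 1.57), and 24 intervals lay within 1 of 0. Without +/+ CR replicate 4, Herc6 and Cmpk2 passed, at 0.67 and 0.58, in a fit that called 951 genes lower and 1141 higher of 17441.

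The response to CR was compared between the genotypes by the interaction term. That term uses the same -/- CR libraries, so library kind enters it as well. No member passed in edgeR (0% of all genes), and DESeq2 called 0. In edgeR, 1 member had an unadjusted p under 0.05, against 1824 of the 17494 genes tested. That member was Herc6, with a difference of 0.59 (padj = 0.43), the -/- response being the higher. Its count is uncertain because of its overlap with Gm45193. The differences ran from -0.66 for Zbp1 (95% interval -1.46 to 0.13) to 0.65 for Rsad2 (-0.76 to 2.05), with a median half-width of 0.71, and for 17 members the interval lay within 1 of 0. A difference in response between the genotypes was therefore not shown for the 9 members that passed in +/+ mice alone.

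Upstream of these genes, the interferons themselves were barely detected. The 20 type I and type III interferon genes had 24 counts over all 14 samples, at most 3 for 1 gene in a sample, and 15 of them had 0 counts in every sample, which allows up to 0.135 to 0.165 CPM in a sample. Ifng, the type II interferon, had 1 to 7 counts in a sample. These genes were too low to test.

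The receptor chains and kinases moved little. Ifnar1 had a log2 fold change with CR of 0.06 in +/+ and 0.14 in -/- mice, and neither passed. Ifnar2 fell by 0.28 in +/+ mice (padj = 0.04) and stood at -0.29 in -/- mice (padj = 0.0817). Ifngr1, the interferon-gamma receptor chain, rose by 0.38 in +/+ mice (padj = 0.0249), and Il10rb, a chain shared with the type III interferon receptor, fell by 0.41 in -/- mice (padj = 0.0463). Of the 11 receptors, kinases and STATs, 1 fell and 1 rose in +/+ mice (9.09% each, against 10.9% and 15% of all genes). In -/- mice 1 fell (9.09%, against 5.57% of all genes), which no longer passed without -/- CR replicate 3. Among those that passed in neither genotype were Ifnlr1, at -0.49 and -0.34, Ifngr2, at -0.00 and -0.26, Jak1, at 0.11 and -0.06, Jak2, at -0.17 and -0.05, Tyk2, at -0.15 and -0.29, and Stat3, at -0.07 and -0.17.

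Of 18 genes that lead to interferon production, 2 fell and 2 rose in +/+ mice. These shares, 11.1% each, were near or below those of all genes tested, 10.9% that fell and 15% that rose. Cgas, the cytosolic DNA sensor, fell by 0.54 and Myd88, the Toll-like receptor adaptor, fell by 0.38, while the endosomal RNA receptors Tlr3 and Tlr7 rose by 1.04 and 0.54. Those that fell in -/- mice were 3 (16.7%, against 5.57% of all genes), namely Unc93b1 at -0.58, Irf5 at -0.47 and Tmem173, which encodes STING, at -0.46. Of 17 genes that restrain the response or clear self nucleic acid, 4 fell (23.5%) and 2 rose (11.8%) in +/+ mice. Over all genes, 10.9% fell and 15% rose there. Rnaseh2c at -0.83, Ptpn6 at -0.56 and Rnaseh2a at -0.50 were the lowest, and Nlrc3 and Trim24 rose by 0.49 and 0.31. Of the 17, 3 fell in -/- mice (17.6%, against 5.57% of all genes), with Ptpn6 at -0.69, Adar at -0.44 and Samhd1 at -0.41. Without -/- CR replicate 3, 1 of these 3 and 0 of the 3 induction genes passed in -/- mice, and without +/+ AL replicate 1, 1 induction gene fell and 2 rose in +/+ mice.

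Interferon-stimulated genes outside the 35 also fell. Of 76 tested, 29 fell and 0 rose in +/+ mice in edgeR, where 2 had a positive change at an unadjusted p under 0.05, and DESeq2 called 31 lower and 1 higher. Of the same 76, 24 fell and 1 rose in -/- mice. The shares that fell were 38.2% in +/+ and 31.6% in -/- mice, against 10.9% and 5.57% of all genes. The median log2 fold changes were -0.35 in +/+ and -0.44 in -/- mice. Oas1g fell, at -2.12 in +/+ and -2.20 in -/- mice, and so did Ifit1bl2, at -1.68 and -1.33. Ifi205 fell by 1.65 in +/+ mice. Cnp fell by 1.02 in -/- mice, where Slfn10-ps rose by 0.65. The 25 interferon-gamma GTPases and targets had 4 that fell (16%) and 1 that rose (4%) in +/+ mice, with a median of 0.01. Over all genes, 10.9% fell and 15% rose there. Igtp was at -0.96, Ifi47 at -0.61 and Irf8 at -0.48, and Gbp4 rose by 0.57. Of these 25, 7 fell in -/- mice (28%, against 5.57% of all genes), and the median was -0.50. They included Cxcl10 at -1.5, Tgtp2 at -0.98 and Igtp at -0.85. Without +/+ AL replicate 1, 22 of the other interferon-stimulated genes fell in +/+ mice. Without -/- CR replicate 3, 6 of them and 0 of the interferon-gamma genes passed in -/- mice.

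**Figure D5:**
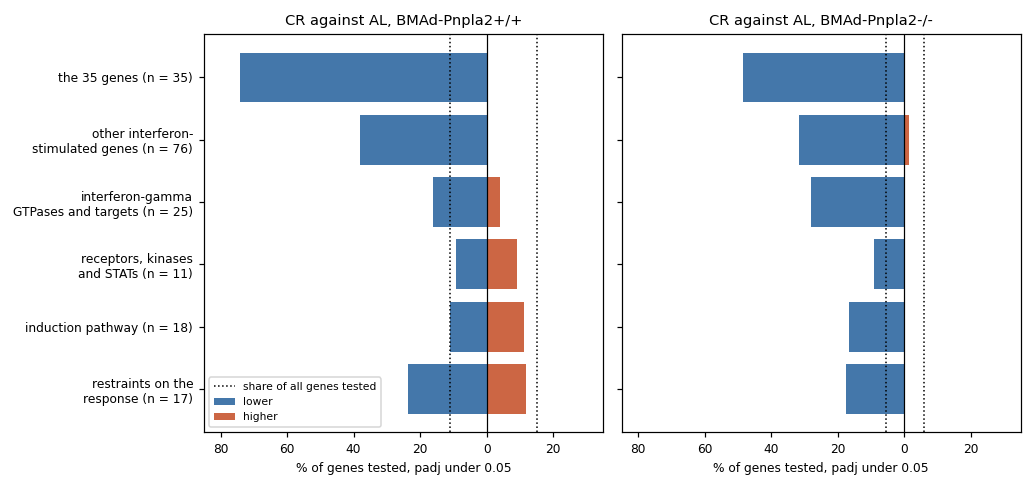
Share of the genes tested in each list that fell (left of 0, blue) or rose (right, orange) with CR at padj under 0.05, in BMAd-Pnpla2+/+ (left panel) and BMAd-Pnpla2-/- mice (right panel), with dotted lines at the shares of all genes tested. The 35 genes reach 74.3% and 48.6% lower, and the receptors, kinases and STATs stay at 9.09% lower in both.

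In the plot of shares by list, the 35 genes had the largest share that fell among the 6 lists plotted, in both genotypes. The lists are of unequal size, and 7 symbols stand in more than 1 of them, while the 35 stand in no other pathway list. All were chosen with earlier results of these data known, so the shares are descriptions and not tests.

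Markers of several cell types moved with the same contrasts, some of them in +/+ mice alone. Over all genes, 10.9% fell and 15% rose in +/+ mice, and 5.57% fell and 6.01% rose in -/- mice. Of 12 neutrophil markers 7 fell in +/+ mice (median log2 fold change -0.66), with Ly6g at -1.23, S100a9 at -1.07 and Ltf at -1.0, and 1 fell in -/- mice, Ly6g at -0.93. Their summed level was 15636 to 26489 CPM in +/+ CR, 30965 to 31981 CPM in -/- AL and 19693 to 31302 CPM in -/- CR samples. The 2 lowest sums of +/+ CR were those of replicates 2 and 3, the lowest pair for 10 members, although replicate 3 was the highest of its group for 18 others. Of 5 plasmacytoid dendritic cell markers, Klk1 (-1.62) and Cox6a2 (-1.28) fell in +/+ mice. There, 3 had a negative and 1 a positive change at an unadjusted p under 0.05 in both edgeR and DESeq2. Klk1 was low, at 0.587 to 3.51 CPM in +/+ AL and 0.451 to 1.15 CPM in +/+ CR samples. In -/- mice 0 passed in edgeR (2 at an unadjusted p under 0.05, and 2 called by DESeq2). The list medians were -0.71 in +/+ and -0.70 in -/- mice. Replicate 1 of +/+ AL had the lowest sum of its group, 30.5 CPM. Monocyte and macrophage markers summed to 2024 to 2529 CPM in +/+ AL and 1970 to 2491 CPM in +/+ CR samples, with 2 of 10 lower and 1 higher.

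The B lineage genes Rag1, Igll1 and Vpreb1 fell in both genotypes, with log2 fold changes of -6.83 to -5.46, and the other 5 of 8 B lineage markers did not pass, although 7 of the 8 had an unadjusted p under 0.05 in -/- mice (list median -1.13). All 8 adipocyte markers rose in +/+ mice and 6 in -/- mice, to sums of 1255 to 2935 CPM and 861 to 1359 CPM. In +/+ mice, 4 of 5 endothelial markers rose, 4 of 10 T and NK markers rose and 1 fell, 3 of 4 megakaryocyte markers fell, and 3 of 5 osteoblast lineage markers rose. In -/- mice, 0 endothelial, 0 megakaryocyte and 0 osteoblast lineage markers passed in edgeR, while 2 of the T and NK markers rose and 1 fell. Of the 6 erythroid markers tested, 0 passed in edgeR or DESeq2 in either genotype, and 0 had an unadjusted p under 0.05 in either test. The part of these shifts in the lower level of the interferon-stimulated genes was not tested.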

How the data were processed

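RNA from distal tibial marrow plugs was sequenced in 14 samples. Per the labels, a stranded kit with paired reads was used. The authors aligned reads to mm10 with STAR after FastQC 0.11.9, and deposited STAR gene counts per sample, unstranded and per strand, and a joined matrix. That matrix holds reverse-strand counts for 11 samples and unstranded counts for the -/- CR samples. STAR's version and the annotation were not given in the sources used here. Pairs mapping to several places or fitting several genes are in no gene's count.

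Unstranded counts of the 23441 matrix genes were tested (18898324 to 21665553 per sample, which sets the counting error). edgeR 4.0.16 (R 4.3.3) with TMM, filterByExpr (17494 genes kept) and a robust quasi-likelihood F-test, two-sided, was fitted once over the 4 groups, with Benjamini-Hochberg adjustment over all genes and a threshold of 0.05. The SE is the log2 fold change divided by the square root of F. The fit was tested on simulated data with known changes. Groups came from the labels. Alternatives were DESeq2 1.42.0, other scalings (limma 3.58.1 is loaded by edgeR), no filter, all genes, only the groups compared, other strand counts, a stricter criterion, a replicate block and leaving out each sample. The members and lists were chosen with earlier results of these data known. Values per sample are given for members called in any comparison and for the member of each role group with the highest mean CPM, and the rest by range. From each list, at most 3 called genes a direction are named, with all receptors and ligands counted. Positions are from GENCODE M21, and shared sequence was counted over 100-base stretches. Tables and plots used Python 3.11.15, pandas 2.3.3 and matplotlib 3.10.9. Values of 1 gene of the receptor list are not reported here.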

Additional observations from a re-analysis of the deposited data

Results flagged for a closer look

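In groups of 4 samples, the highest or lowest value was compared with the nearest other value, as a share of the group's range, against Dixon's 95% critical value. Over 100 such groups, 9 exceeded it. Chance gives about 1 in 20 for a single group of normally spread values. These groups share the same samples and are not independent, so their count cannot be set against that rate. For 7 members the value that stood apart was that of +/+ AL replicate 1. It measured 171 CPM for Irf7 (69.2 to 77.4 CPM in the other 3 samples), 39.0 CPM for Dhx58 (24.8 to 27.1), 48.4 CPM for Ifi204 (29.8 to 32.5) and 25.4 CPM for Oas1a (10 to 12.5). It measured 3.48 CPM for Ifi44 (2.14 to 2.26), 41.3 CPM for Rtp4 (15.8 to 19) and 86.2 CPM for Trim30a (66.7 to 69.7). The summed level of 5 endothelial markers also stood apart in that sample, at 645 CPM against 447 to 455 CPM. In the +/+ CR group, Ifih1 was lowest in replicate 2, at 22.9 CPM against 27.5 to 28.4 CPM. The cause was not tested.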

How the results depend on the processing

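For single members, 1713 values under alternatives were set beside 73 results. Of these, 1565 kept their direction and their side of the threshold, 93 lost significance, 35 gained it and 20 changed sign. Requiring a log2 fold change past 1 as well left 13 calls in +/+ and 10 in -/- mice, by construction. Leaving out each sample in turn gave 19 to 27 calls in +/+ mice (18 held every time) and 7 to 19 in -/- mice (7 held every time), with medians of -0.85 to -0.59 and -0.95 to -0.67. With only the groups compared, 19 calls were made in +/+ mice (5.61% of all genes fell) and 23 in -/- mice (9.34% of all genes fell). Without +/+ AL replicate 1, 20 calls remained in +/+ mice, and without -/- CR replicate 3, 7 in -/- mice. For -/- against +/+ mice under CR, the joined matrix called 3 members (Dhx58 -0.52, Herc6 0.56 and Trim30a 0.35) and 1261 genes lower and 1190 higher of 17509, and leaving out samples gave 0 to 2. That matrix sets unstranded counts of -/- CR samples against reverse-strand counts of the rest. Dhx58 stood at -0.28 with unstranded counts throughout, and its unstranded count was 83.2% of its reverse-strand count in the stranded libraries. The unstranded count of Slfn5 was also below its reverse-strand count. Slfn5 in -/- mice went from 0.02 to -0.22 in the joined matrix, -0.023 with DESeq2's size factors or DESeq2, -0.026 with no filter and -0.018 with only the groups compared. Without single samples, Slfn5 ran from -0.10 to 0.20 in +/+ and from -0.13 to 0.21 in -/- mice, Herc6 from -0.047 to 0.18 and Ifi44 from -0.51 to 0.028 in -/- mice. The cause was not tested. Over all genes in -/- mice, 974 fell and 1051 rose; total counts alone gave 682 and 1386, and DESeq2's size factors 1246 and 900, with 16 and 19 members lower.

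Replicate numbers are shared between groups. Of 19 same-numbered pairs of samples from different groups, 7 correlated above 0.1 in their deviations from group means (-0.37 to 0.33). Of 54 differently numbered pairs, 16 did so (-0.44 to 0.36), so no clear pairing by number was seen. With a replicate block, 24 members fell in +/+ mice (Zbp1 and Rtp4 missed the threshold) and 17 in -/- mice. Counting depth was not tested as a limit for single members.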
